A study of Mus musculus with 8 samples.

Results

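Heme is built in a pathway that starts and ends in the mitochondrion, and developing red cells, which fill with hemoglobin, run it at a far higher rate than other cells. The 9 genes described here are 7 enzymes of that pathway (Alas2, Alad, Uros, Urod, Cpox, Ppox and Fech), the mitochondrial iron importer gene Slc25a37 and the transferrin receptor gene Tfrc. They were chosen by name, and all 9 were found among the 33619 genes and unnamed features tested. The samples were mesonephric tubules, the tubules of a transient embryonic kidney, microdissected from toluidine blue stained cryosections of mouse embryos, with total RNA hybridised to 1-colour (Cy3) Agilent arrays. There were 3 arrays labelled p21-null (p21 knockout, called non-senescent in the design) and 5 wild-type arrays (called senescent), all of strain C57/BL6. The labels state no embryonic stage and no allele, and do not say whether the samples are from separate embryos or pools, so a p-value here reflects the spread among these samples alone, which may be technical. Values are log2 signals minus the 75th percentile of the same array, and differences are arrays labelled p21-null minus wild-type arrays on that log2 scale. A level is compared between arrays only, never between probes of different genes.

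Heme synthesis begins with 5-aminolevulinate, made from glycine and succinyl-CoA in the mitochondrion, passes through porphyrinogen intermediates in the cytosol, and returns to the mitochondrion, where iron is placed in the finished ring. Erythroid precursors take up that iron as transferrin bound to the transferrin receptor and pass it into the mitochondrion through mitoferrin. In the embryo, red cells form first in the yolk sac and then in the fetal liver, and circulate through the vessels of every organ, the mesonephros included.

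The share of the 55681 probes that were well above background ran from 82.3% to 89.3% per array, with 0 saturated spots. Pairs of arrays correlated between 0.848 and 0.945. The arrays lay on 3 slides, each with both groups: labelled p21-null replicate 1 with wild-type replicates 1, 2 and 3 on slide 1, labelled p21-null replicate 2 with wild-type replicate 4 on slide 2, and labelled p21-null replicate 3 with wild-type replicate 5 on slide 3. Cdkn1a, which encodes p21, averaged 1.49 ± 0.58 (SD, n = 3) on the arrays labelled p21-null and 1.68 ± 0.90 (SD, n = 5) in wild type on its brighter probe, with limma adjusted p = 0.950. On its dimmer probe the means were −1.81 ± 0.33 and −1.57 ± 0.47 in the same order (limma over all probes, adjusted p = 0.892). The labels do not say which part of the gene was deleted, so this check cannot settle the label, and every direction below rests on it. Of 14 markers of mesonephric tubule and duct, 13 were well above background on all 8 arrays, Pax2 and Lhx1 among them, and Emx2 was so on 2 of 3 arrays labelled p21-null and on all 5 wild-type arrays.

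All 9 genes had a higher mean in the arrays labelled p21-null, against 16020 of all 33619 genes and unnamed features tested. The differences ran from 0.76 for Cpox to 2.09 for Alad with a median of 1.45, while the median over all genes tested was −0.03. Of the 33619, 18164 had a gene symbol, and shares of all genes here and below are shares of all 33619, unnamed features included. By limma, 0 of 9 genes reached an adjusted p under 0.05, as did 0% of all genes tested. At an unadjusted p under 0.05, 7 of 9 were higher, against 6.2% of all genes, and the 2 that missed it were Urod and Cpox. Without labelled p21-null replicate 1, or without replicate 3, that count was 4 of 9. A stricter rule, p under 0.01 unadjusted and 2-fold or more, was met by 3 of 9 in the higher direction (Alad, Uros and Tfrc), against 2.09% of all genes. Those same 3 genes had no overlap between groups, with all arrays labelled p21-null on top, an order that 4.43% of all genes showed. These shares exceed the background, but the 9 genes were listed with earlier results of these data known and vary together across arrays, so they are not 9 independent observations. In microdissected tissue, a difference in the number of cells of a type and a difference in RNA per cell cannot be told apart.

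**Figure D1:**
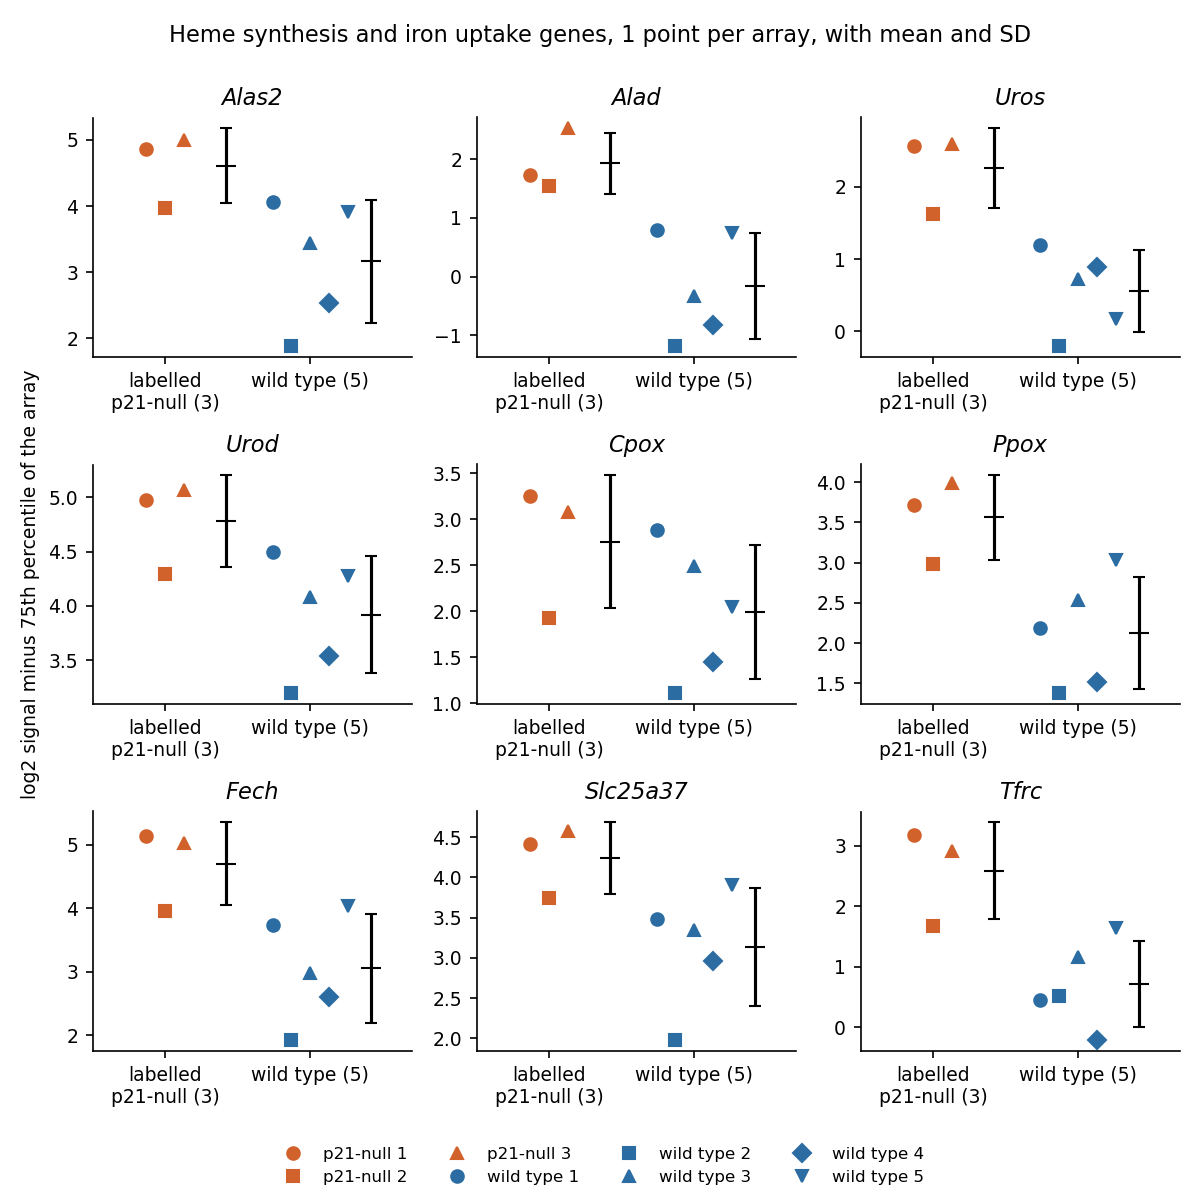
Level of each of the 9 genes, as log2 signal minus the 75th percentile of the array, with 1 point per array, orange for the 3 arrays labelled p21-null and blue for the 5 wild-type arrays, and black bars for mean and SD. Alad, Uros and Tfrc show no overlap between the groups, whereas for Cpox 3 wild-type arrays reach the lowest array labelled p21-null.

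The first steps of the pathway held both the gene that is specific to red cells and the gene with the largest difference. Alas2 encodes the erythroid 5-aminolevulinate synthase, the first and rate-setting enzyme of heme synthesis in red cells. It stood at 4.87, 3.97 and 5.0 in labelled p21-null replicates 1 to 3, against 4.06, 1.88, 3.45, 2.54 and 3.90 in wild-type replicates 1 to 5. Labelled p21-null replicate 2 lay just below wild-type replicate 1, so the groups overlapped, and wild-type replicates 2 and 4 were low. The difference was 1.45 with a standard error of 0.55, or 2.73-fold (limma adjusted p = 0.414). Alad encodes the cytosolic enzyme that joins aminolevulinate molecules into porphobilinogen. Its values were 1.73, 1.55 and 2.52 in the arrays labelled p21-null, against 0.79, −1.19, −0.32, −0.82 and 0.75 in wild type. The lowest array labelled p21-null lay 0.75 above the highest wild-type array, the widest such gap among the 9 genes. The difference was 2.09 with a standard error of 0.53, or 4.26-fold with a 95% interval of 1.86 to 9.78 (limma adjusted p = 0.288).

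The cytosolic steps that follow differed among themselves. Uros encodes uroporphyrinogen III synthase, which closes the tetrapyrrole ring. It was read at 2.56, 1.63 and 2.59 in labelled p21-null replicates 1 to 3, against 1.20, −0.21, 0.72, 0.90 and 0.18 in wild-type replicates 1 to 5. The groups did not overlap, and wild-type replicate 5, among the highest wild-type arrays for most of the 9 genes, was low for this gene. The difference of 1.7 had a standard error of 0.41 (3.26-fold, limma adjusted p = 0.284). Urod encodes uroporphyrinogen decarboxylase, the last cytosolic enzyme of the pathway. Its values were 4.98, 4.29 and 5.06 on the arrays labelled p21-null and 4.50, 3.20, 4.09, 3.54 and 4.28 in wild type. Labelled p21-null replicate 2 lay below wild-type replicate 1 and level with wild-type replicate 5. The difference was 0.86 with a standard error of 0.38, and its 95% interval on the fold scale ran from 0.997 to 3.30, so neither no difference nor a 3-fold one lay outside it.

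The late mitochondrial enzymes formed a graded set. Cpox encodes coproporphyrinogen oxidase. It was measured at 3.25, 1.93 and 3.08 in the arrays labelled p21-null, against 2.88, 1.11, 2.49, 1.45 and 2.05 in wild type. Here labelled p21-null replicate 2 lay among the wild-type arrays, below replicates 1, 3 and 5. The difference of 0.76 was the smallest of the 9, with a 95% interval of 0.781-fold to 3.66-fold (limma adjusted p = 0.681). Ppox encodes protoporphyrinogen oxidase, which makes protoporphyrin, and stood at 3.72, 2.98 and 3.99 in the arrays labelled p21-null, against 2.19, 1.38, 2.53, 1.51 and 3.04 in wild type. Only wild-type replicate 5 reached the lowest array labelled p21-null, by 0.06. The difference was 1.43 (standard error 0.45, limma adjusted p = 0.344). Fech encodes ferrochelatase, which inserts ferrous iron into protoporphyrin. It had 5.13, 3.95 and 5.02 on the arrays labelled p21-null and 3.74, 1.92, 2.98, 2.59 and 4.04 in wild type. Again wild-type replicate 5 alone overlapped, and the difference was 1.65 with a standard error of 0.53, or 3.13-fold (limma adjusted p = 0.356).

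Iron supply was read through the receptor at the cell surface and the carrier in the mitochondrial inner membrane. Tfrc encodes transferrin receptor 1, which carries transferrin into the cell and is abundant on erythroid precursors and dividing cells. Its brightest probe gave 3.17, 1.68 and 2.91 in labelled p21-null replicates 1 to 3, against 0.45, 0.52, 1.16, −0.21 and 1.64 in wild-type replicates 1 to 5. The groups were apart by 0.04 only, between labelled p21-null replicate 2 and wild-type replicate 5. The difference was 1.88 with a standard error of 0.50, or 3.67-fold (limma adjusted p = 0.292). Slc25a37 encodes mitoferrin 1, the mitochondrial iron importer of erythroid cells. It was at 4.41, 3.74 and 4.57 on the arrays labelled p21-null and 3.49, 1.97, 3.34, 2.96 and 3.90 in wild type. Wild-type replicate 5 lay above labelled p21-null replicate 2, and the difference was 1.11 with a standard error of 0.45 (2.15-fold, limma adjusted p = 0.458).

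The size of the difference depended on the probe for the 2 genes that had more than 1 of them. The other 7 genes had a single probe each, 12 probes in all. The dimmer Slc25a37 probe gave 4.27, 3.30 and 4.44 in the arrays labelled p21-null, against 2.56, 0.65, 1.66, 1.01 and 2.54 in wild type, a difference of 2.32 where the brighter probe gave 1.11. On the dimmer probe the groups did not overlap. The dimmer Tfrc probes gave differences of 2.38 and 2.54, against 1.88 on the brightest, and on the probe with 2.38 wild-type replicate 5 at 1.14 reached above labelled p21-null replicate 2 at 1.06. For both genes the rule that the brightest probe stands for the gene therefore picked the smallest difference.

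**Figure D2:**
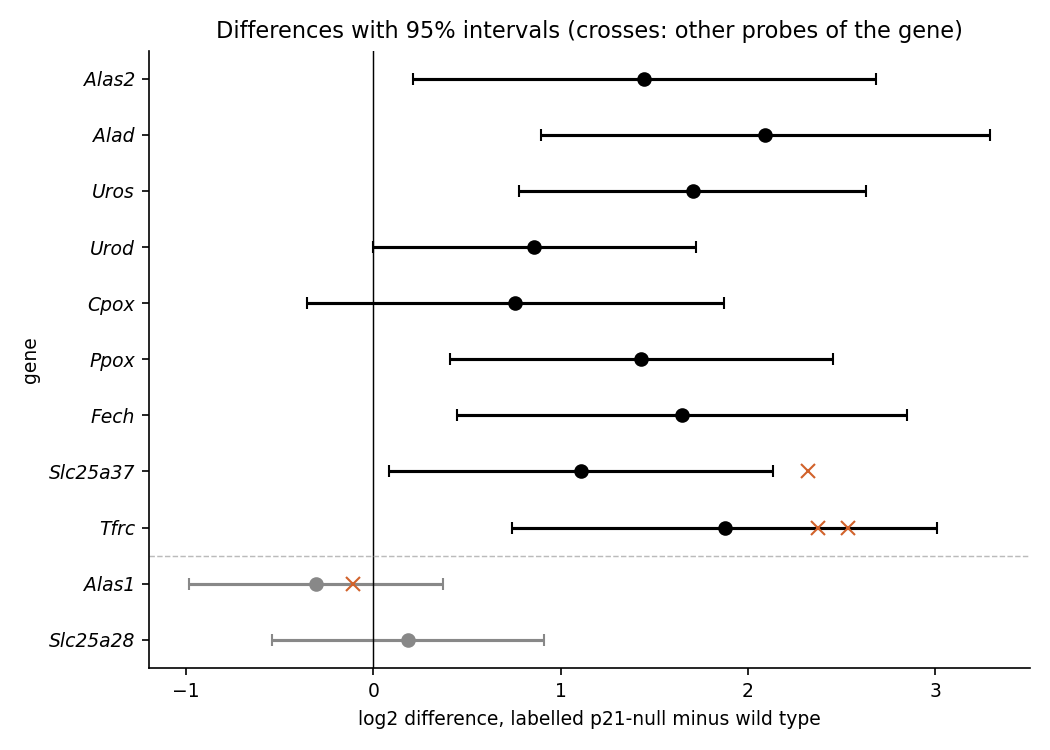
Log2 difference of labelled p21-null minus wild type with its 95% interval for the 9 genes (black) and, below the dashed line, for Alas1 and Slc25a28 (grey); crosses mark the other probes of Slc25a37, Tfrc and Alas1. The intervals of Urod and Cpox reach below 0, those of the other 7 genes stay above it, and Alas1 and Slc25a28 lie around 0.

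The widely expressed counterparts of the erythroid genes stayed close to 0. Alas1 encodes the aminolevulinate synthase that other tissues use. It stood at 0.74, 0.05 and −0.04 on the arrays labelled p21-null and 0.59, 0.62, 0.86, 0.42 and 0.27 in wild type, and its groups overlapped. Its difference was −0.31 with a 95% interval of −0.98 to 0.37, and −0.11 on its other probe. Slc25a28, which encodes mitoferrin 2, the importer of cells other than red cells, had a difference of 0.19 with a 95% interval of −0.54 to 0.91. Taken within each array, Alas2 minus Alas1 differed between the groups by 1.75, and a two-sided exact permutation test over the 56 ways to assign 3 of 8 arrays gave p = 0.0357, or 0.0714 after adjustment over the 2 such pairs. Slc25a37 minus Slc25a28 differed by 0.92 (two-sided exact permutation p = 0.179, and 0.179 adjusted). That value rests on the brighter Slc25a37 probe, with a difference of 1.11. The dimmer probe, with a difference of 2.32 and no overlap between groups, was not tested against Slc25a28. The smallest p this permutation test allows is 0.0179. The genes were listed with earlier results of these data known, and the permutations moved arrays freely across slides. No conclusion is drawn from these p-values.

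Promoter windows from RefSeq (build GRCm38.p6) were examined because the levels of these genes varied together across arrays. The 250 bases before a start were searched on both strands for GATAA, the core bound by GATA factors, and for CACCC, the box bound by Klf1 and other zinc finger factors. The 10 windows of 7 of the 9 genes were used (Alas2, Alad, Uros, Urod, Cpox, Ppox and Tfrc). No window was found for Slc25a37 and Fech was left out, so the counts do not cover these genes. GATAA was present in 3 of these 10 windows and in 22.6% of all 32851 windows of this length, and CACCC in 5 of 10 and in 52.0% of all, with no test made on so few windows. The windows that hold GATAA are printed below, with Alas1 as the counterpart without it, and capitals mark the match, which reads TTATC because it lies on the opposite strand. In Alas2 (chrX:150547167-150547416, plus strand) the match begins 86 bases before the start and the window has 3 CACCC matches. In Cpox (chr16:58669958-58670207, plus strand) it also begins at 86 bases, with 4 CACCC matches. In the second annotated start of Uros (chr7:133702501-133702750, minus strand) it begins 68 bases before the start, and the first annotated start of Uros has none. The Alas1 window (chr9:106247955-106248204, minus strand) has 1 CACCC match. Cpox and Alas2 each carry 1 GATAA match, and their differences were 0.76 and 1.45. A match in letters is not a bound site, and a relation between matches and differences was not tested.
Alas2: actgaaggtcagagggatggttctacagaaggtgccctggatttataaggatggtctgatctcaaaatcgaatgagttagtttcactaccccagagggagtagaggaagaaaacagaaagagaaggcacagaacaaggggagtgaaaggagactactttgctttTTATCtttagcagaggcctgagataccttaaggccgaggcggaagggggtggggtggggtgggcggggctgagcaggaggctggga
Cpox: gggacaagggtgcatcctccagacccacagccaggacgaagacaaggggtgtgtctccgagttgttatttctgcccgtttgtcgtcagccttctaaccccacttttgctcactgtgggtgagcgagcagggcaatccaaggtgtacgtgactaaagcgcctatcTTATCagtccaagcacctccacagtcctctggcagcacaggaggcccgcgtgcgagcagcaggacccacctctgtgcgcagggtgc
Uros: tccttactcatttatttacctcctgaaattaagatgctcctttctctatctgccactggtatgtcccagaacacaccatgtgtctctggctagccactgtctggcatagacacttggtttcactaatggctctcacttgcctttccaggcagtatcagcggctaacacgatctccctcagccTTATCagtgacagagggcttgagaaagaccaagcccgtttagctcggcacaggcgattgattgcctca
Alas1: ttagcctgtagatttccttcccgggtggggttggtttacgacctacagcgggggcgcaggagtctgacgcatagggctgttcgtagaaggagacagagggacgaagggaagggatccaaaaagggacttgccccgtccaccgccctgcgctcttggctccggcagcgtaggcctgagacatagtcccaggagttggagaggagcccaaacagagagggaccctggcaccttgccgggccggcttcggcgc

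The 9 genes ordered the 8 arrays in much the same way. The median of their 9 levels was 3.72, 2.98 and 3.99 in labelled p21-null replicates 1 to 3, against 2.88, 1.38, 2.53, 1.51 and 3.04 in wild-type replicates 1 to 5. Labelled p21-null replicate 3 was the highest of all arrays for 6 genes and labelled p21-null replicate 1 for the other 3. Wild-type replicate 2 was the lowest for 8 genes, and wild-type replicate 4 was the lowest for Tfrc. Wild-type replicate 5 reached the lowest array labelled p21-null for 4 genes, wild-type replicate 1 for 3 and wild-type replicate 3 for Cpox. Over the 8 arrays, Pearson's r between the 36 pairs of genes ran from 0.698 for Cpox with Tfrc to 0.995 for Alas2 with Urod, with a median of 0.890. These values are a description, since the pairs share their arrays and the group difference.

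Within each slide every gene was higher in the array labelled p21-null. All 27 such differences, 3 for each gene, were above 0, from 0.48 for Cpox on slide 2 to 2.46 for Tfrc on slide 1. The median over the genes was 1.74 on slide 1, 1.36 on slide 2 and 1.03 on slide 3. The largest of the 3 differences was on slide 1 for 7 of 9 genes, while for Alad it was on slide 2 (2.37) and for Uros on slide 3 (2.42). Slides 2 and 3 held 1 array of each group, so these values have no error of their own.

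**Figure D3:**
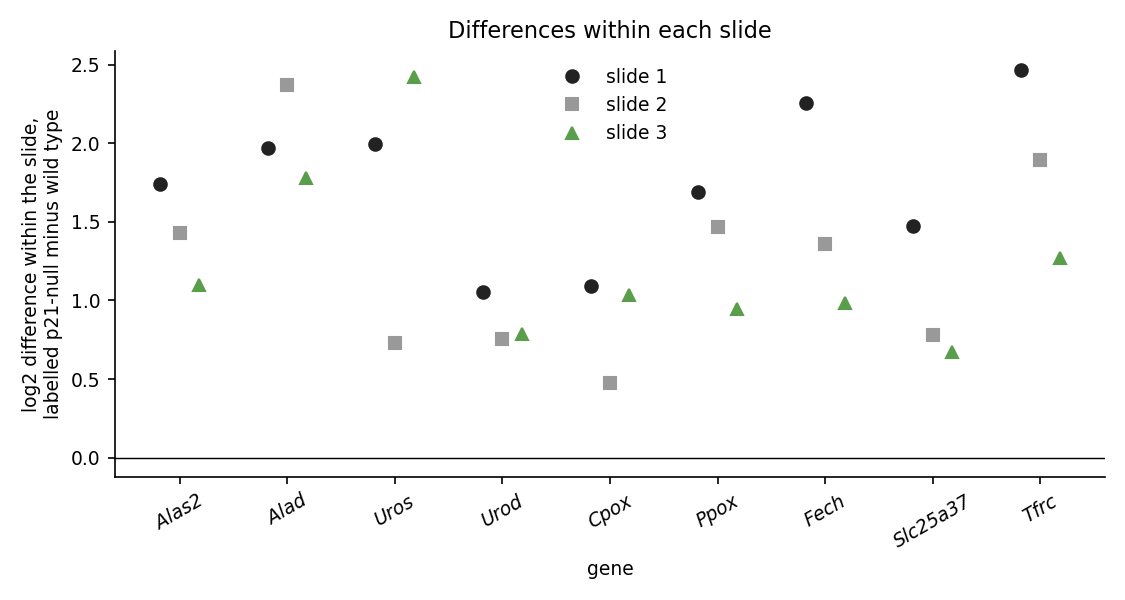
Log2 difference of labelled p21-null minus wild type within each of the 3 slides for the 9 genes (on slide 1, 1 array against the mean of 3). Every point is above 0, and slide 1 gives the highest point for all genes but Alad and Uros.

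Markers of erythroid cells outside the heme pathway, and of liver, stood higher on the same arrays. The mean of 24 measured erythroid markers (of 26 listed) was 3.35, 2.58 and 3.44 in labelled p21-null replicates 1 to 3, against 1.7, 0.13, 1.36, 0.80 and 2.39 in wild-type replicates 1 to 5. Of these markers 22 had a positive difference, against 16020 of all 33619 genes. At an unadjusted p under 0.05, 16 of the markers were higher, against 6.2% of all genes. The mean of 16 liver markers ranged from 2.66 to 4.04 on the arrays labelled p21-null and from −0.94 to 2.89 in wild type, with all 16 positive and 15 higher at that threshold, and that of 14 macrophage markers from −0.11 to 0.43 and from −1.55 to −0.06. The mean of 12 proliferation markers, relevant to Tfrc, ranged from 1.89 to 2.53 on the arrays labelled p21-null and from 0.87 to 1.76 in wild type. Endothelial markers did not separate the groups, with means from −0.81 to 0.54 and from −1.24 to 0.66. Of 14 markers of the dissected tubule and duct, 11 had a negative difference and 3 a positive one, with a median of −0.88. List means ranged from −2.15 to −1.41 in the arrays labelled p21-null and from −1.89 to 0.17 in wild type, so the groups overlapped. All 5 wild-type arrays reached the lowest array labelled p21-null. Only wild-type replicates 1 and 4, at 0.17 and −0.54, stood well above the highest array labelled p21-null. At an unadjusted p under 0.05, 1 of the 14 markers, the cadherin gene Cdh6, was lower (−2.27, with no overlap between groups), against 3.91% of all genes, and 0 were higher. All measured erythroid and liver markers were well above background on all 8 arrays, Klf1, Alb and Afp among them. The part these cell types and the tubule markers have in the differences of the 9 genes was not tested.

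Each of the 9 genes followed the erythroid marker mean across the 8 arrays. Pearson's r was highest for Fech at 0.987, followed by Ppox at 0.974, Slc25a37 at 0.972, Alad at 0.967, Alas2 at 0.963 and Urod at 0.945, and it was 0.897 for Tfrc, 0.824 for Uros and 0.783 for Cpox. Spearman's rho ran from 0.762 for Cpox to 0.976 for Alad and Slc25a37. Two-sided exact permutation p-values of r, adjusted over 18 relations (9 genes with 2 marker means), ran from 0.000638 to 0.0287, and those of rho from 0.00179 to 0.0389. Without the 2 arrays farthest from the median of the marker mean (labelled p21-null replicate 3 and wild-type replicate 2), r was 0.552 for Cpox and 0.619 for Uros, whose relation thus leaned on those arrays, and 0.868 to 0.979 for the others. With the liver marker mean r ran from 0.717 for Cpox to 0.967 for Slc25a37, with adjusted exact permutation p-values from 0.000638 to 0.0493 for r and from 0.00179 to 0.0831 for rho. Without the 2 arrays farthest from the median of that mean, r was 0.335 for Cpox, 0.506 for Uros and 0.733 to 0.954 for the others. Alas1 gave −0.455 and Slc25a28 0.0694 with the erythroid mean. Both marker means differ between the groups, as do the 9 genes, and the permutations moved arrays freely across groups and slides. The lists were also chosen with earlier results of these data known. The permutation p-values of r and rho therefore cannot separate a relation within groups from the shared group difference. No conclusion is drawn from them. With 5 and 3 arrays a group, and 4, 2 and 2 arrays a slide, r was not computed within a group or slide.

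**Figure D4:**
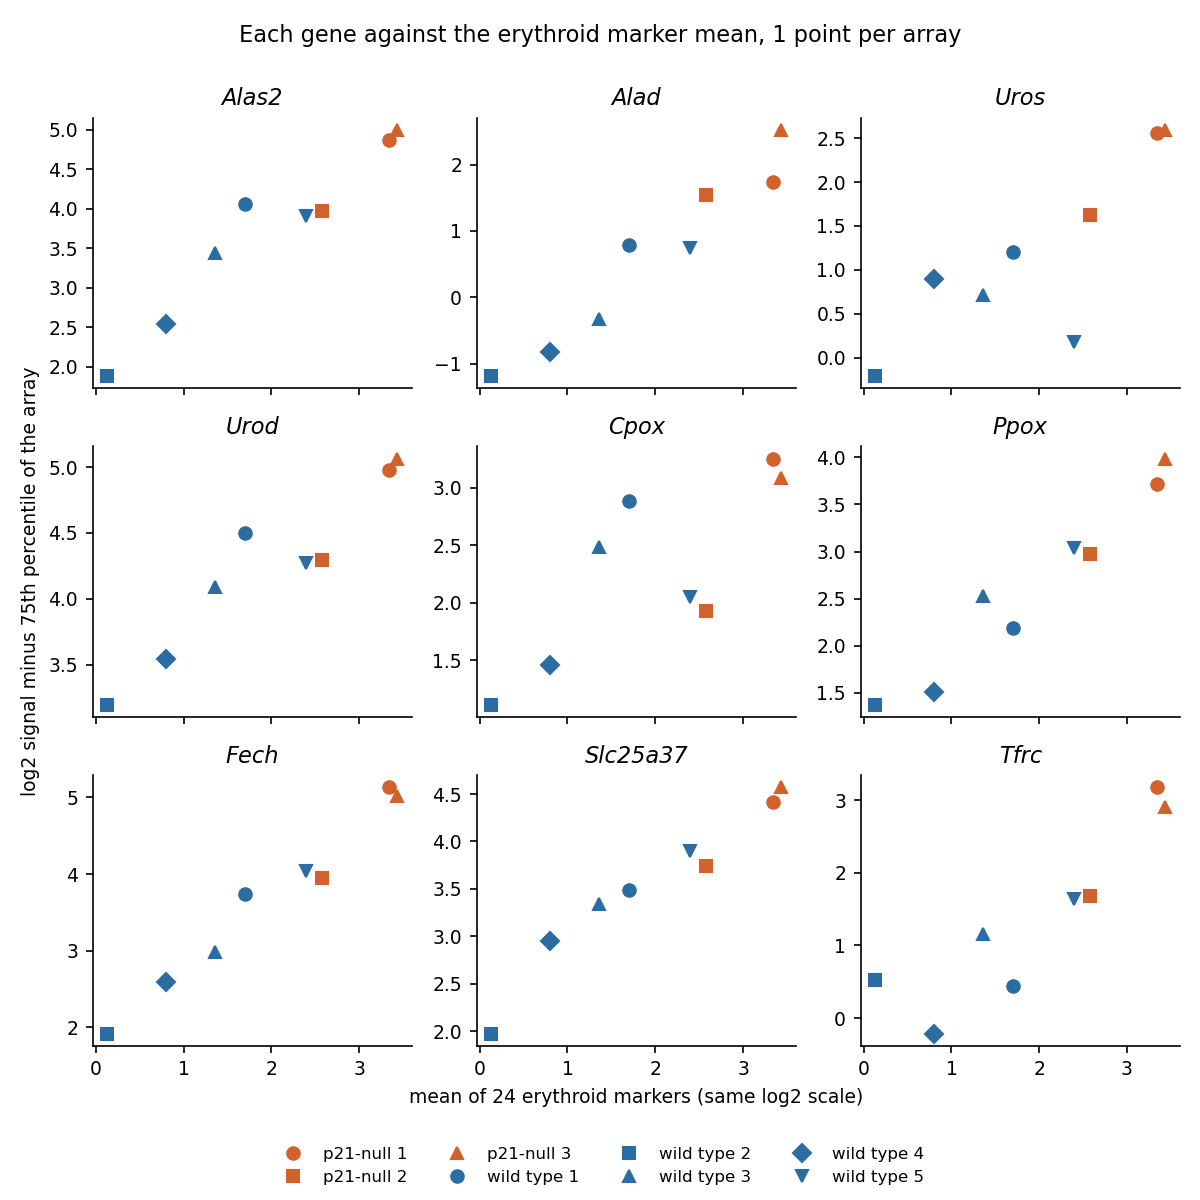
Level of each of the 9 genes (log2 signal minus the 75th percentile of the array) against the mean of 24 erythroid markers on the same scale, with 1 point per array, orange for labelled p21-null and blue for wild type. Fech and Slc25a37 lie close to a line through both groups, while Uros in wild-type replicate 5 and Cpox in labelled p21-null replicate 2 lie below the trend.

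Among 18039 other genes with a symbol and a value on every array, the 8 most like Alas2 by Pearson's r over the 8 arrays included Urod (0.995), Arrb1 (0.988), Gata1 (0.984), Tut7 (0.983), Otc (0.980) and Car2 (0.980). Gata1 is the erythroid transcription factor gene and Car2 encodes a carbonic anhydrase of red cells, whereas Otc encodes a urea cycle enzyme of the liver. Fech ranked 11 and Slc25a37 ranked 20 in that order, and Tfrc ranked 634. The 5 most like Tfrc were the complement genes C1ra (0.995) and C8a (0.990), then Foxo3 (0.985), the DNA polymerase theta gene Polq (0.985) and Hhex (0.984), a transcription factor gene of liver and blood development. Of the 9 genes Ppox was closest to Tfrc, at rank 67.

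The remaining genes of heme synthesis and its mitochondrial carriers mostly had higher means in the arrays labelled p21-null as well. Of 10 such genes, Alas1 included, 9 had a positive difference, against 16020 of all 33619 genes. At an unadjusted p under 0.05, 8 of the 10 were higher, against 6.2% of all genes, and 0 were lower, against 3.91%. Limma's adjusted threshold was passed by 0 of them. Tmem14c, needed in mouse erythroid cells to bring porphyrinogen into the mitochondrion, had the smallest p of this list, with 4.0, 3.62 and 4.28 in the arrays labelled p21-null, against 2.42, 1.98, 1.98, 1.88 and 3.0 in wild type. Its difference was 1.71 (standard error 0.35, limma adjusted p = 0.283). The differences were 2.22 for Fam210b, a mitochondrial protein gene of erythroid differentiation, 1.59 for the porphyrin transporter gene Abcb6, 1.41 for Abcb10, which stabilises mitoferrin 1, and 1.14 for Slc25a38, the mitochondrial glycine importer. The difference of Tspo, encoding an outer membrane protein of the mitochondrion, was 1.67. Clpx, whose product activates aminolevulinate synthase, had a difference of 0.45 and did not pass.

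Other routes of iron uptake were mixed. All 10 genes had a positive difference, against 16020 of all 33619 genes. At an unadjusted p under 0.05, 5 of the 10 were higher, against 6.2% of all genes, and 0 lower, against 3.91%, with 0 past limma's adjusted threshold. Steap3, the ferrireductase of erythroid endosomes, was at 2.07, 1.49 and 2.47 in the arrays labelled p21-null, against −0.53, −0.19, −0.67, −0.70 and 1.46 in wild type. Labelled p21-null replicate 2 lay just above wild-type replicate 5, and the difference was 2.14, or 4.40-fold (limma adjusted p = 0.288). Slc11a2, which moves iron out of the endosome, had a difference of 1.58 and Slc39a8, a zinc and iron importer, of 1.75. Tfr2, the second transferrin receptor, expressed in liver and erythroid cells, had 2.06, and Trf, the plasma iron carrier transferrin secreted by liver, had 1.7. Snx3, which recycles the transferrin receptor, and Mcoln1 had 0.43 and 0.0163 without passing.

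Among genes of heme export, breakdown and sensing, each of these roles held genes that were higher and genes that did not pass. Of 13 genes 5 were higher at an unadjusted p under 0.05, against 6.2% of all genes, and 0 lower, against 3.91%, and 0 passed limma's adjusted threshold. Eif2ak1, the heme-regulated kinase that slows translation in red cell precursors short of heme, averaged 3.33 ± 0.42 (SD, n = 3) on the arrays labelled p21-null and 1.88 ± 0.41 (SD, n = 5) in wild type, a difference of 1.45. The biliverdin reductase genes Blvra and Blvrb had 1.46 and 1.88, and Abcg2, a porphyrin exporter, had 1.40. Hpx, the heme-binding plasma protein hemopexin of the liver, had the largest difference of the list at 2.60, or 6.06-fold. The heme oxygenase genes Hmox1 and Hmox2 (0.96 and −0.14), the heme exporter gene Flvcr1 (0.15) and the heme-binding repressor gene Bach1 (−0.48) did not pass.

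Iron-sulfur cluster assembly also draws on mitochondrial iron, and the median difference of its 11 genes was 0.72, against −0.03 over all genes. Of these 5 were higher at an unadjusted p under 0.05, against 6.2% of all genes, and 0 lower, against 3.91%, again with 0 past limma's adjusted threshold. Hscb, a cochaperone of cluster transfer, averaged 0.77 ± 0.32 (SD, n = 3) on the arrays labelled p21-null and −0.62 ± 0.33 (SD, n = 5) in wild type, with a difference of 1.39. The cluster assembly gene Isca1 had 1.42, and the cysteine desulfurase gene Nfs1 and its partner Lyrm4 0.99 and 0.95. In 5 of the 11 genes, those just named included, all arrays labelled p21-null lay above all wild-type arrays, against 4.43% of all genes. The genes named here were picked for their small p, which favours such an order.

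Over the 5 lists of other heme and iron genes, this one included, 27 of 56 genes were higher at an unadjusted p under 0.05, against 6.2% of all genes. Without labelled p21-null replicate 3 that count was 16. Leaving out that array also lowered the count over all genes at p under 0.01 unadjusted and 2-fold or more higher, from 704 to 178. Of 12 genes of iron storage, export and sensing 4 were higher at an unadjusted p under 0.05, against 6.2% of all genes, and 0 lower, against 3.91%, with 0 past limma's adjusted threshold and a median difference of 0.16. The ferritin chain genes Fth1 and Ftl1 had 0.46 and −0.07, and the iron regulatory protein genes Aco1 and Ireb2 had −0.31 and 0.31. The 4 genes that passed were the iron exporter gene Slc40a1 (1.32), Ncoa4 (1.24), which delivers ferritin for breakdown, and the liver products Cp (1.76) and Hamp (1.84), encoding ceruloplasmin and hepcidin. Hamp was well above background on 3 of 5 wild-type arrays and stood at −1.51, −5.12 and −4.61 in the arrays labelled p21-null, so replicate 1 alone stood well above the wild-type arrays, whose highest value was −4.87.

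**Figure D5:**
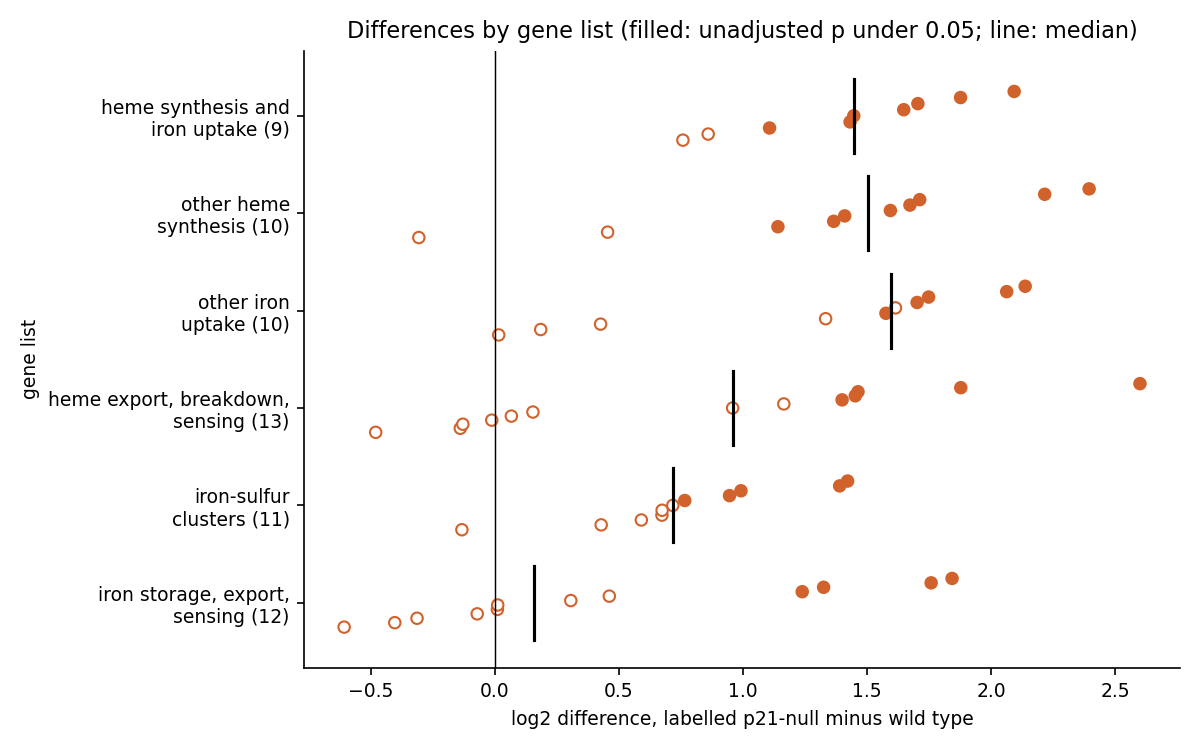
Log2 difference of labelled p21-null minus wild type for every measured gene of 6 lists, filled where limma's unadjusted p is under 0.05, with the median of each list as a black line. The medians run from 1.45 for the 9 genes, 1.5 for other heme synthesis and 1.60 for other iron uptake genes to 0.96, 0.72 and 0.16 for heme export and breakdown, iron-sulfur clusters, and iron storage and sensing.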

How the data were processed

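The deposited scanner files were written by Feature Extraction (Agilent, version 10.7.3.1), per the file headers. They hold linear 1-colour spot intensities that, as deposited, were already corrected for background and spatial trends within each array but not normalized between arrays. A series table of log2 values, deposited by the authors, is normalized between arrays; limma is named in the submitters' processing notes.

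Control spots and outlier spots were left out, spots of a probe were averaged, and log2 intensities were taken minus the 75th percentile of the array. Probes well above background on at least 3 of 8 arrays were kept (50046 of 55681), and the probe with the highest mean stood for a gene. A RefSeq table (GRCm38.p6) named 26056 probes through their accessions, versions dropped. The comparison used limma 3.58.1 (R 4.3.3), an unpaired fit over all 33619 genes and features, with Benjamini-Hochberg adjustment. The fit was tested on simulated data. Precision is limited by the number of arrays.

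The members and gene lists were chosen with earlier results of these data known. Named by rule were the 9 genes, Cdkn1a, Alas1 and Slc25a28, the 4 genes of smallest p in each of 5 lists with any other at an unadjusted p under 0.05, and the genes most like Alas2 and Tfrc, less a few left unreported that counts over lists still include. Genes outside this rule (Pax2, Lhx1, Emx2, Clpx, Snx3, Mcoln1, Hmox1, Hmox2, Flvcr1, Bach1, Fth1, Ftl1, Aco1, Ireb2 and the cell type markers, Cdh6 included) were named after their values were seen. Alternatives covered scaling, background, filter, slide, replicate number, probe rule, moderation, array weights, the series table and leaving out each array.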

Additional observations from a re-analysis of the deposited data

Results flagged for a closer look

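In 39 genes the 5 wild-type values were searched for an array standing apart, using Dixon's 95% limit of 0.71, which chance passes in about 1 in 20 groups. For Steap3, wild-type replicate 5 at 1.46 stood above the other 4 wild-type arrays (−0.703 to −0.192). For Slc39a8, wild-type replicate 2 at −0.463 stood below the other 4 (1.61 to 2.32). None of the 9 heme and iron uptake genes had such an array.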

How the results depend on the processing

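All 9 differences kept a positive sign under all 20 alternatives, and none of the 9 reached an adjusted p under 0.05 in any of them; the smallest was 0.0550 for Uros with array weights. The median difference of the 9 ranged from 1.24 to 1.77 when 1 array was left out. The number of the 9 at an unadjusted p under 0.05 (7) ranged from 4 to 8 on leaving out an array, being 4 without labelled p21-null replicate 1 or 3. For the other heme and iron genes that count (27 of 56) ranged from 16, without labelled p21-null replicate 3, to 30 on leaving out an array, and was 33 with array weights. The mean of all probes raised Slc25a37 to 1.71, against 1.11, as its dimmer probe shows by itself. Cpox ranged from 0.51 to 1.17 over all alternatives. Over all genes, the count at an adjusted p under 0.05 (0) was 3 with normexp background and 13 with array weights, and 0 to 1 on leaving out an array (1 without wild-type replicate 4). The count at an unadjusted p under 0.01 and at least 2-fold (992) was 2425 with array weights, which gave labelled p21-null replicate 3 a weight of 4.02 against 0.518 to 1.33 elsewhere, and 309 to 1306 on leaving out an array, at 416 where labelled p21-null replicate 1 and 309 where replicate 3 was dropped. No pairing by replicate number was seen. Same-numbered arrays correlated at −0.084 to 0.064 in their deviations, and 0 of 3 arrays labelled p21-null correlated best with its own number. So few arrays could not show a weak pairing. With the replicate block the count over all genes was 942 and the median of the 9 was 1.53.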

Other observations

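The erythroid markers outside the heme pathway were themselves uneven. The adult globin genes Hba-a1 and Hbb-bt had differences of 0.17 and −0.04 and the embryonic globin gene Hbb-y −0.05, whereas the embryonic globin gene Hbb-bh1 had 2.39 and the erythropoietin receptor gene Epor 2.54 in the arrays labelled p21-null minus wild type. Hba-a1 ranged from 6.38 to 6.87 on the arrays labelled p21-null and from 5.98 to 7.21 in wild type. Near-identical globin copies can share probes, so single globin genes are uncertain. Whether the globin differences differ from those of the 9 heme and iron uptake genes was not tested. These genes were picked after their values were seen.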
